A study of Mus musculus with 6 samples.

Results

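Iron is stored in ferritin, a cage built from heavy chains (*Fth1*) and light chains (*Ftl1*), leaves the cell through ferroportin (*Slc40a1*), and enters it by the transferrin receptor (*Tfrc*) and the divalent metal transporter *Slc11a2*. The phagosomal transporter *Slc11a1* moves divalent metals out of phagosomes, and heme oxygenase *Hmox1* frees iron from heme. These 7 genes were chosen by name for their place in iron storage, transport and heme breakdown, and all 7 were among the 19449 genes of the single-cell table and the 55351 genes of the bulk table. The single-cell data came from CD45+ mononuclear cells, sorted from the spinal cord of C57BL/6 mice with adoptive transfer EAE, a model of autoimmune neuroinflammation. All of these recipients carried transferred CD4+ T cells, primed in donor mice with a myelin (MOG) peptide and cultured under Th17-polarizing conditions with IL-23. Recipients were young (8 to 12 weeks) or middle-aged (40 to 44 weeks), cells were taken on day 6 or day 10 posttransfer, and each of the 4 libraries pooled 4 spinal cords. The bulk data were 2 libraries of microglia from naive, untreated spinal cords, 1 young and 1 middle-aged, sorted by flow cytometry as CD11b+ cells with an intermediate level of CD45. The study used mice of both sexes. There was 1 library per age and day, so no group had a replicate. The pooled mice cannot be told apart.

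Cells set the levels of most of these proteins after transcription. When iron is scarce, iron regulatory proteins (*Aco1* and *Ireb2*) bind a hairpin, the iron-responsive element, in certain transcripts. A hairpin in the 5′ UTR (ferritin, ferroportin) then blocks translation, whereas hairpins in the 3′ UTR of *Tfrc* protect the transcript from decay. Macrophages and microglia take up iron with red cells and debris that they ingest. The values below count transcripts, and protein was not measured.

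The hairpins of the members are printed because they are the sequences on which this control acts. They were found in the GENCODE vM21 transcripts (GRCm38) as C, a 5-base arm, a 6-base loop that begins CAGTG, and a second arm that pairs with the first, with 6 bases on either side of this stretch. Capitals mark the loop, and every sequence is written 5′ to 3′ on the strand of the gene.
*Fth1*, 5′ UTR, chr19:9982732-9982760, plus strand: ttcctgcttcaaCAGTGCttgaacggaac
*Ftl1*, 5′ UTR, chr7:45459779-45459807, minus strand: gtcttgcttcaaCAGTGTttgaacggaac
*Slc40a1*, 5′ UTR, chr1:45925465-45925493, minus strand: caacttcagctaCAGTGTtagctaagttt
*Tfrc*, 3′ UTR, chr16:32631219-32631247, plus strand: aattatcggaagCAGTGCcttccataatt
*Tfrc*, 3′ UTR, chr16:32631598-32631626, plus strand: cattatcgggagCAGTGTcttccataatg
*Tfrc*, 3′ UTR, chr16:32631663-32631691, plus strand: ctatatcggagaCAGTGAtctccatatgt
*Tfrc*, 3′ UTR, chr16:32631710-32631738, plus strand: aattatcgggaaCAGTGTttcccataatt
The pattern occurs in 31 of 20899 coding genes with a 5′ UTR (0.148%) and in 129 of 21685 with a 3′ UTR (0.595%). These letters were not in the UTRs of *Hmox1*, *Slc11a1* or *Slc11a2* that were searched. The search required every base of the arms to pair, so it could not find a hairpin of another form in these genes. In the same build *Fth1* lies at chr19:9980598-9985098, *Ftl1* at chr7:45457944-45459884, *Slc40a1* at chr1:45908068-45926523, *Tfrc* at chr16:32608920-32632794, *Hmox1* at chr8:75093621-75100589, *Slc11a1* at chr1:74375195-74386062 and *Slc11a2* at chr15:100387898-100425072.

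The libraries held 8315 to 10026 cells and 57337626 to 69859331 UMIs (unique molecular identifiers, 1 for each transcript captured), 38057 cells in all, and 13 to 36 cell barcodes were shared between any pair of libraries. The authors deposited a cluster number for each cell but no cell type. By marker genes, clusters 10 and 8 were microglia-like, 1 and 5 macrophage- and monocyte/macrophage-like, 0, 3 and 6 neutrophil-like, 7 dendritic cell-like, 2 T cell-like, 4 B cell-like and 9 NK cell-like, and 11 to 15 were left unnamed. In cluster 10, 3 of the 10 leading genes were microglia markers and the list had a median log2 ratio of 5.09 over the other clusters. In cluster 8 none of the 10 leading genes was on the list and the median was 2.51, and its cells were shallow (median 2059 UMIs in young day 6, where all cells had 6196), so that name is less secure, as is that of cluster 0 (0.239 for the neutrophil list, with none among its 10 leading genes). Cluster 1 had its highest list median for border-associated macrophages (1.55) with none of its 10 leading genes on that list. Clusters 6, 12, 13, 14 and 15 had under 50 cells in at least 1 library. Levels are given as counts per 1000000 UMIs of a cluster and library (CPM). The clusters were made from the expression of these cells, so differences between them are described and not tested.

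Ferritin heavy chain transcript was most abundant in the neutrophil-like cluster 0 and the macrophage-like cluster 1 and low in the lymphocyte-like clusters. In cluster 0, *Fth1* had a mean of 49020 CPM ± 6251 (SD, n = 4 libraries), from 43140 to 57840 CPM. In cluster 1 it had 28230 ± 9891 CPM and in the microglia-like cluster 8 24510 ± 10860 CPM. The unnamed clusters 14 and 13 had 18040 ± 8004 and 15570 ± 4893 CPM. Their highest list medians were for B cells (4.28) and T cells (1.39), and their neutrophil list had mean sums of 65180 and 52270 CPM. The T cell-like cluster 2 was lowest at 2270 ± 163.6 CPM, so the highest mean was 21.6 times the lowest. Cluster 0 was the only one of the 16 whose 4 values did not overlap those of the next cluster in the order. Of all *Fth1* UMIs, 55.2% lay in cluster 1 and 26.1% in cluster 0.

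The light chain followed much the same order. *Ftl1* had 11830 ± 2466 CPM in cluster 0, 6255 ± 2525 CPM in cluster 8, 6147 ± 1548 CPM in cluster 1 and 4329 ± 1185 CPM in cluster 10. The lowest mean was again that of cluster 2, 820.5 ± 63.59 CPM, and 13 of the 15 pairs of neighbours in the order overlapped. *Ftl1-ps1*, a near copy of *Ftl1* on another chromosome, could take some of its reads, so the split between these is uncertain. *Ftl1-ps1* stood at 59.89 to 105.1 CPM in cluster 0.

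**Figure D1:**
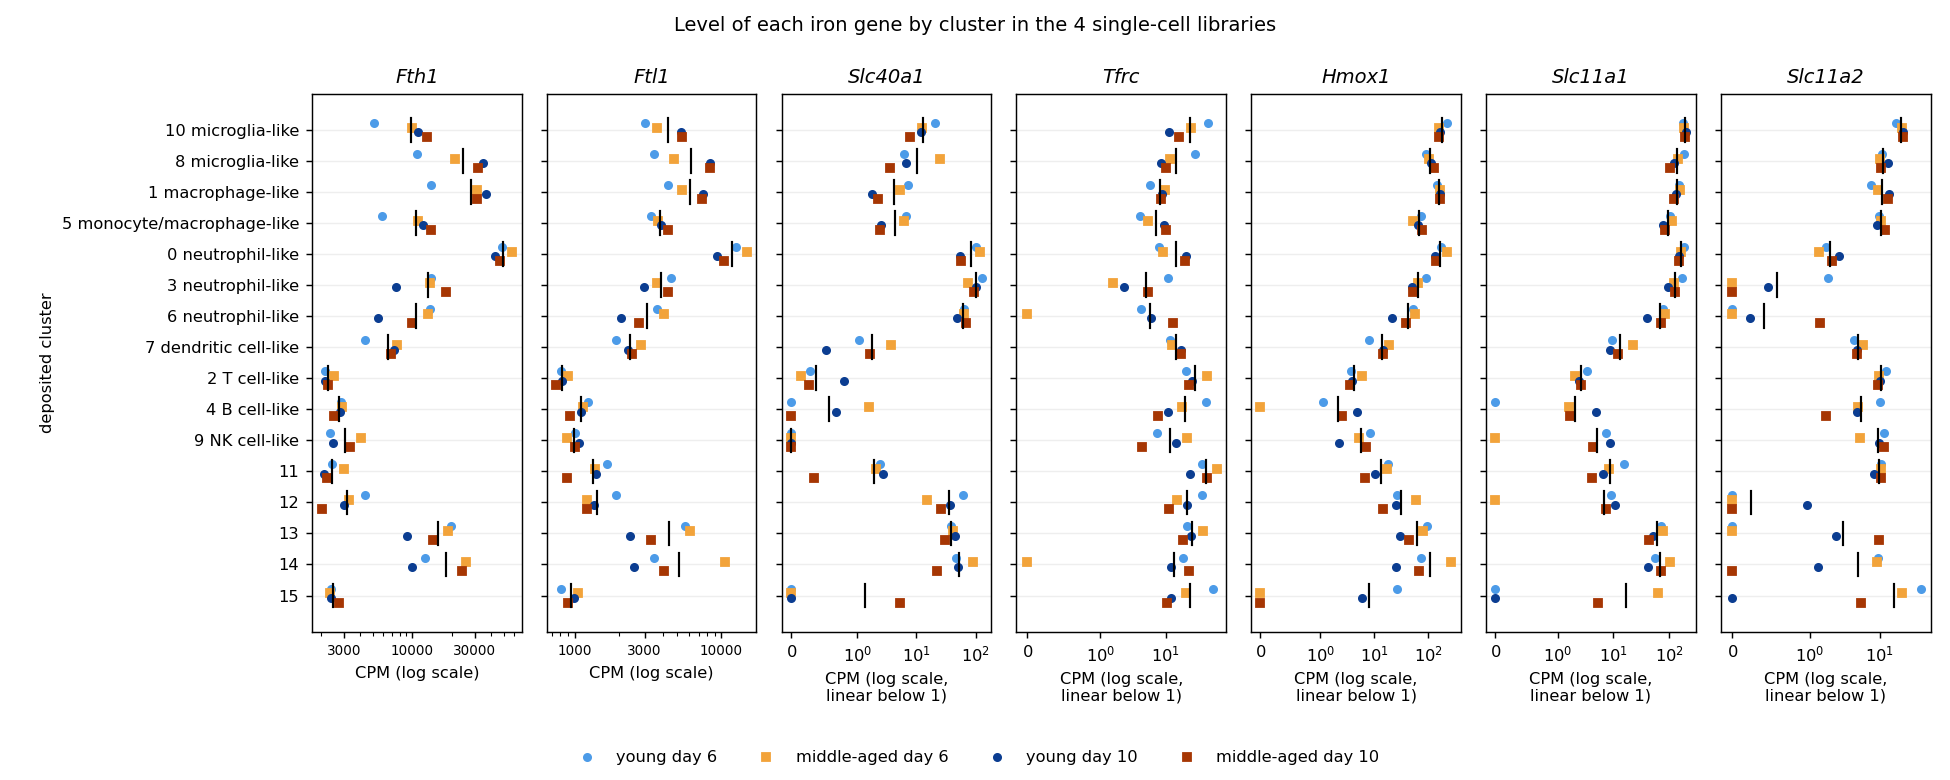
Levels of the 7 genes in the 16 deposited clusters, in CPM on a log axis (linear below 1 where a panel holds values under 1). Each point is 1 library (n = 4 per cluster) and each black bar the mean of the 4 libraries. *Hmox1* and *Slc11a1* have their highest means in clusters 10, 0 and 1 and *Fth1* and *Ftl1* in clusters 0, 1 and 8 (*Fth1* in cluster 10 ranks 9 of 16), all of these are low in clusters 2, 4 and 9, *Slc40a1* is highest in the neutrophil-like clusters 3, 0 and 6, and *Tfrc* spreads least between clusters.

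Ferroportin, the only known iron exporter of mammalian cells, was found mainly in neutrophil-like cells. *Slc40a1* had 99.45 ± 21.56 CPM in cluster 3, 82.15 ± 32.24 CPM in cluster 0 and 61.07 ± 8.832 CPM in cluster 6. The microglia-like clusters 10 and 8 had 13.05 ± 5.286 and 10.28 ± 9.641 CPM, and clusters 5 and 1 had 4.411 ± 2.264 and 4.164 ± 2.596 CPM. Cluster 0 alone held 56.3% of all *Slc40a1* UMIs. The T cell-like cluster had 0.1457 to 0.7938 CPM, and the NK cell-like cluster 9 had none among 2964575 UMIs, which allows up to 1.01 CPM.

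The share of cells with an *Slc40a1* UMI gave the same picture. With each cell thinned to 2000 UMIs, 12.8% of 6123 cells of cluster 0 held a UMI (exact binomial 95% interval 11.9 to 13.6), with 3134 shallower cells left out. In cluster 3 it was 15.2% of 947 cells, with 232 left out. In cluster 1 the share was 0.565% of 9558 cells (0.425 to 0.737). T cell-like and B cell-like cells were at 0.0606% of 6605 and 0.0853% of 1172 cells. They were taken as a guide to the background of free RNA, which was not measured. Without thinning a UMI was found in 1481 of 9257 cells in cluster 0, and the shares were 24.7% in cluster 3, 2.62% in cluster 1, 0.249% in cluster 2 and 0.147% in cluster 4, at median depths of 2269, 2935, 9106, 5317.5 and 2697 UMIs. All intervals here and below cover counting error only.

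The transferrin receptor, which brings in transferrin-bound iron, had its highest means in clusters 11 and 2. *Tfrc* had 40.5 ± 14.99 CPM in the unnamed cluster 11 and 27.6 ± 10.43 CPM in the T cell-like cluster 2. Microglia-like cluster 10 had 23.75 ± 14.42 CPM, macrophage-like cluster 1 8.098 ± 1.695 CPM and neutrophil-like cluster 3 5.045 ± 4.224 CPM. All 15 pairs of neighbours overlapped, and the highest mean was only 8.03 times the lowest. *Slc11a2*, the transporter that carries iron across the endosomal membrane after uptake, was highest in cluster 10 at 20.28 ± 2.094 CPM, from 17.17 to 21.64 CPM. It had 11.08 ± 1.429 CPM in cluster 8 and 10.9 ± 2.969 CPM in cluster 1, and no more than 2.614 CPM in any library of the neutrophil-like clusters 0, 3 and 6.

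*Hmox1* and *Slc11a1*, both genes of phagocytes, were shared by microglia-like, macrophage-like and neutrophil-like cells. *Hmox1* had 177.1 ± 31.98 CPM in cluster 10, 165.8 ± 38.29 CPM in cluster 0 and 158.4 ± 10.43 CPM in cluster 1, and these did not differ beyond the spread of their libraries. The B cell-like cluster 4 was lowest at 2.113 ± 2.063 CPM. *Slc11a1* had 187.8 ± 11.17 CPM in cluster 10, 161.1 ± 17.85 CPM in cluster 0 and 139.3 ± 15.55 CPM in cluster 1, with cluster 4 again lowest at 2.022 ± 1.999 CPM. For *Slc11a1* all 15 pairs of neighbours in the order overlapped, and for *Hmox1* 14 did.

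Likeness of pattern was measured as Pearson's r of mean log2(CPM + 1) over the 16 clusters among 8231 genes, as a description without a test, since the points share libraries and depth. *Fth1* was most like *Ftl1* (r = 0.982), then *Sdcbp* (0.955) and *Gla* (0.952), and *Ftl1* was most like *Fth1*, *Ftl1-ps1* (0.968) and *Gla* (0.966). Nearest to *Slc40a1* were *Hnmt* (0.969), *Chil1* (0.963) and *Mmp9* (0.956), of which *Mmp9* is a marker on the neutrophil list. Nearest to *Tfrc* were *Npat* (0.882), *Arl6ip1* (0.872) and *Hells* (0.870), to *Hmox1* *Plin2* (0.963), *Gpr84* (0.958) and *Sirpa* (0.951), and to *Slc11a1* *Tlr2* (0.966), *Cd300c2* (0.961) and *Fcgr4* (0.958). For *Slc11a2* they were *1110038B12Rik* (0.947), *Calu* (0.946) and *Mettl5* (0.938). Among the members, *Slc40a1* and *Slc11a2* ran most nearly opposite (r = -0.715).

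Age was first tested over both days, on the UMIs summed by cluster and library, with day in the model (edgeR quasi-likelihood, Benjamini-Hochberg adjustment over all genes tested, 1 residual degree of freedom). The residual is the part of the age effect that differs between the days, so an age difference on 1 day only adds to it and is harder to call. The fit also draws each gene's residual spread toward that of all genes tested. No member passed an adjusted p of 0.05 in any of the 7 clusters fitted. The share of all genes called for age was as low, at 0.142% in cluster 10, 0.0956% in cluster 8, 0.0982% in cluster 1, 0.655% in cluster 5, 0.208% in cluster 0, 0.929% in cluster 3 and 0.0616% in cluster 2. Of the tests on members, 4 had an unadjusted p under 0.05. These were *Fth1* in cluster 5 (log2 fold change 0.59 ± 0.14 SE, middle-aged over young, unadjusted p = 0.00062 and adjusted p = 0.067 in edgeR), in cluster 8 (0.44 ± 0.15, adjusted p = 0.98) and in cluster 3 (0.66 ± 0.27, adjusted p = 0.39), and *Slc40a1* in cluster 10 (-0.66 ± 0.30, adjusted p = 0.999). The DESeq2 Wald test called no member either, and edgeR without a filter on low counts called *Fth1* in clusters 5 and 8. Genes called higher and lower numbered 5 and 3 in cluster 8, 6 and 6 in cluster 1 and 8 and 12 in cluster 0, and 0 and 3, 4 and 7, and 10 and 48 with total counts in place of TMM factors.

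Taken by day, *Fth1* was 1.77 to 2.23 times as high in middle-aged as in young cells of clusters 10, 8, 1, 5 and 7 on day 6, and 0.851 to 1.18 times on day 10. In the macrophage-like cluster 1, the *Fth1* level on day 6 was 13930 CPM at the younger and 31050 CPM at the older age, and on day 10 it was 36710 and 31230 CPM. The young day 6 library stood apart below the other 3. In the microglia-like cluster 8 the values were 10770, 20990, 34450 and 31820 CPM in the same order, and in cluster 10 they were 5089, 9850, 10990 and 12940 CPM. Young day 6 was again lowest in both. Over the 16 clusters it was the lowest library for *Fth1* in 7 and the highest in 3, while young day 10 was the lowest in 6.

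As log2 ratios of middle-aged over young CPM, *Fth1* had 1.16 [95% interval 1.15 to 1.16] in cluster 1, 0.96 [0.93 to 1.00] in cluster 8, 0.95 [0.92 to 0.98] in cluster 10, 0.92 [0.91 to 0.94] in cluster 5 and 0.82 [0.79 to 0.85] in the dendritic cell-like cluster 7 on day 6. The corresponding ratios on day 10 were -0.23, -0.11, 0.24, 0.19 and -0.08. The day 6 ratio was smaller in the neutrophil-like clusters 0 (0.27), 3 (-0.02) and 6 (-0.04), in T cell-like cluster 2 (0.22), in B cell-like cluster 4 (0.02) and in the unnamed cluster 13 (-0.08). It was of like size in the NK cell-like cluster 9, 0.78 [0.68 to 0.87] on 2263 and 1520 UMIs, and in the unnamed cluster 14, 1.04 [0.94 to 1.13] on 1351 and 2799 UMIs. On day 10 it was high in clusters 14 (1.28), 3 (1.27), 6 (0.86) and 13 (0.65). With 1 library for each age and day, age on day 6 and any difference in the handling of these libraries cannot be told apart.

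Markers of other lineages also differed between these libraries. The summed neutrophil list in cluster 1 stood at 3899 and 2727 CPM in young and middle-aged mice on day 6 and at 5472 and 1977 CPM on day 10, and in cluster 10 at 4440, 1236, 5911 and 3604 CPM. In cluster 8 the monocyte/macrophage list stood at 1060 and 1754 CPM on day 6 and at 6915 and 5650 CPM on day 10, while the microglia list stood at 6035, 3941, 2648 and 3210 CPM. Erythroid markers were at 0 in cluster 8 and at no more than 0.582 CPM in clusters 10, 1 and 5. The day 6 ratio of *Fth1* was as large in the cells left after those with 5 or more UMIs of the neutrophil list (and, in clusters 10 and 8, of the monocyte/macrophage list) were removed, a choice made after seeing the data. It was then 1.25 in cluster 1, 1.02 in cluster 5, 1.00 in cluster 8 and 1.37 in cluster 10. In cluster 10, 266 of 432 young and only 37 of 216 middle-aged cells were left. Free RNA in the cells left was not measured, and the part of other lineages in the ratio was not tested.

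**Figure D2:**
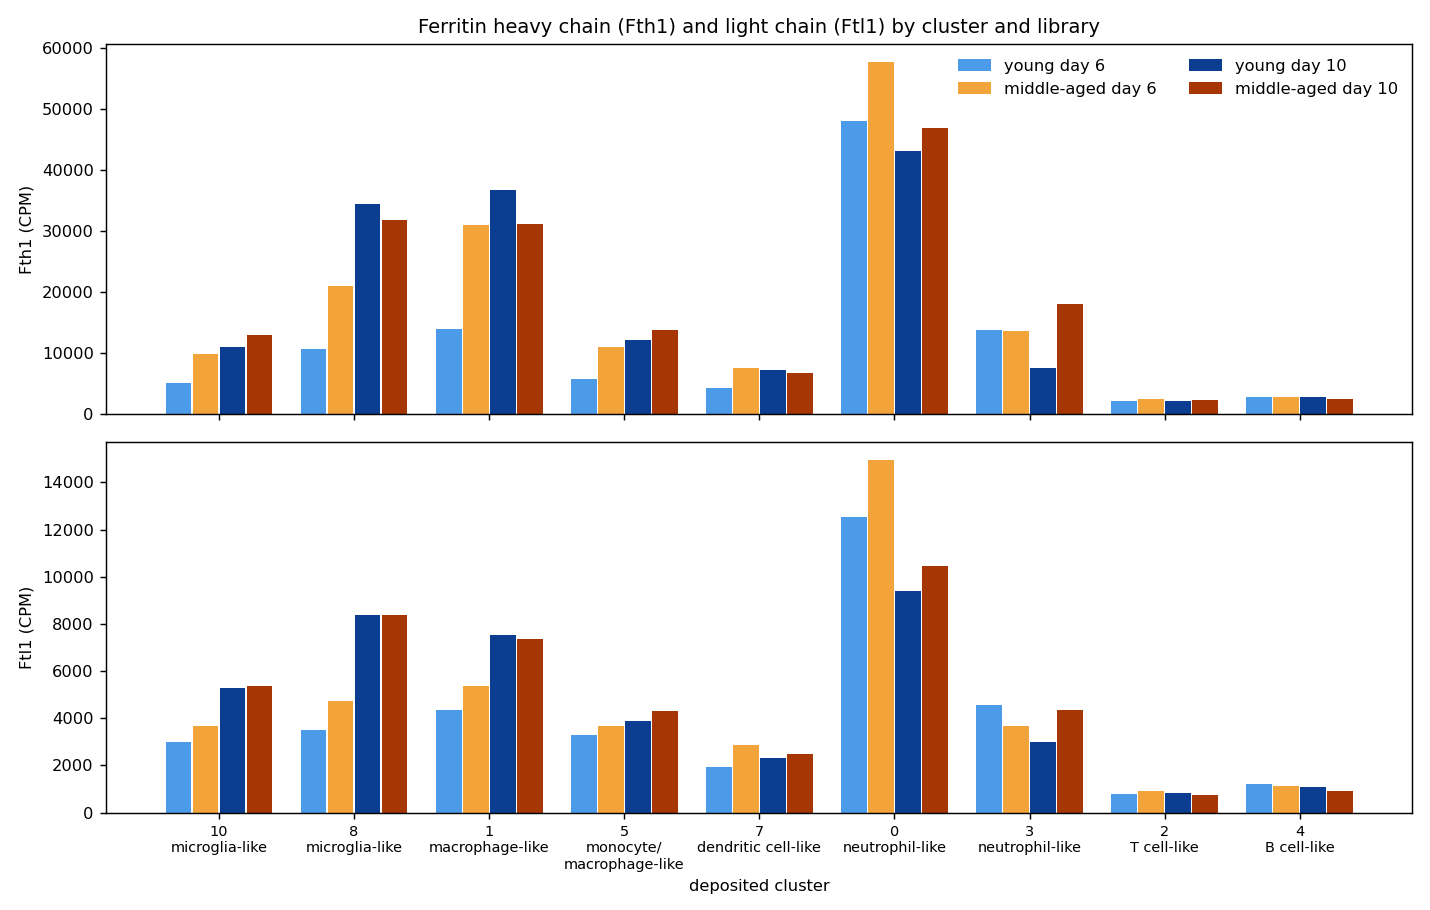
Levels of *Fth1* (upper panel) and *Ftl1* (lower panel) in 9 clusters, in CPM, with 1 bar per library (no replicates). In clusters 10, 8, 1, 5 and 7 the young day 6 bar is the lowest of the 4 for both genes, and the gap to middle-aged day 6 is wider for *Fth1* than for *Ftl1*, while cluster 0 is highest for both.

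In clusters 10, 8, 1, 5 and 7 the light chain differed less between the ages on day 6 than the heavy chain. This did not hold in every cluster, since the log2 ratios of *Ftl1* and *Fth1* were 1.61 and 1.04 in cluster 14 and -0.32 and -0.02 in cluster 3 on day 6, and -0.67 and 0.07 in cluster 11 and 0.16 and 0.12 in cluster 0 on day 10. In cluster 1 the *Ftl1* level was 4348 and 5367 CPM on day 6 and 7531 and 7343 CPM on day 10, with young given before middle-aged. Its log2 ratios on day 6 were 0.30 [0.29 to 0.32] in cluster 1, 0.45 [0.38 to 0.52] in cluster 8, 0.29 [0.25 to 0.33] in cluster 10 and 0.16 [0.14 to 0.19] in cluster 5, and on day 10 they lay between -0.04 and 0.15 in these clusters. The number of *Fth1* UMIs per *Ftl1* UMI, which no scaling of the libraries can move, was 3.20 in young and 5.79 in middle-aged cells of cluster 1 on day 6, and 4.88 and 4.25 on day 10. In cluster 8 it was 3.09, 4.42, 4.10 and 3.79 in the same order, and in cluster 10 it was 1.70, 2.69, 2.08 and 2.41. Young day 6 had the lowest ratio of the 4 libraries in clusters 10, 8, 1, 5 and 7. In cluster 0 the ratio was 3.84 and 3.87 on day 6 and 4.60 and 4.50 on day 10, so there the days lay further apart than the ages.

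A gene of a single pair of libraries was counted as apart when its CPM differed 1.5-fold or more either way, among genes with 100 or more UMIs in the pair. In the 7 clusters fitted, the members apart on day 6 were 2 of 7 in cluster 1 (*Fth1* and *Tfrc* higher, against 12.7% of all genes), 2 of 6 in cluster 10 (*Fth1* higher and *Tfrc* lower, 12.3%), 1 of 4 in cluster 8 (*Fth1* higher, 12.5%), 1 of 5 in cluster 5 (*Fth1* higher, 9.94%), 1 of 4 in cluster 2 (*Tfrc* higher, 8.37%), 1 of 4 in cluster 3 (*Slc40a1* lower, 20.4%) and 0 of 6 in cluster 0 (10.7%). On day 10, 1 member was apart there in cluster 3 (*Fth1* higher, 1 of 5, against 28.0% of all genes). None was apart on that day in cluster 10 (0 of 5, 3.68%), 8 (0 of 4, 4.46%), 1 (0 of 6, 3.09%), 5 (0 of 4, 7.29%), 0 (0 of 6, 2.86%) or 2 (0 of 5, 2.33%). In the other clusters, the members apart on day 6 were 3 of 5 in cluster 7 (*Fth1*, *Hmox1* and *Slc11a1* higher, 17.6%), 2 of 2 in cluster 14 (*Fth1* and *Ftl1* higher, 27.1%), 1 of 2 in cluster 9 (*Fth1* higher, 8.16%), 1 of 3 in cluster 11 (*Tfrc* higher, 15%) and 1 of 2 in cluster 12 (*Ftl1* lower, 43.9%), and 0 of 2 in each of clusters 4 (13.1%), 6 (14.5%), 13 (15.7%) and 15 (11.2%). On day 10 they were 3 of 5 in cluster 6 (*Fth1*, *Hmox1* and *Slc11a1* higher, 18.1%), 2 of 2 in cluster 14 (*Fth1* and *Ftl1* higher, 27.3%), 2 of 3 in cluster 11 (*Tfrc* higher and *Ftl1* lower, 10.4%) and 1 of 2 in cluster 13 (*Fth1* higher, 12.2%), and 0 of 2 in each of clusters 4 (5.06%), 7 (5.18%), 9 (4.01%), 12 (15.2%) and 15 (7.03%). The median log2 ratio of the members tested on day 6 was 0.30 in cluster 1 and 0.19 in cluster 10, beside -0.13 and -0.04 over all genes. These comparisons share libraries with the test over both days.

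*Tfrc* was higher at the older age in T cell-like cells of day 6 and lower in microglia-like cells of that day, a contrast that was not tested. In cluster 2 its level was 20.19, 42.98, 24.82 and 22.39 CPM in young day 6, middle-aged day 6, young day 10 and middle-aged day 10, with log2 ratios of 1.09 [0.80 to 1.39] and -0.15 [-0.37 to 0.07]. In cluster 10 it had 43.93, 23.92, 11.38 and 15.76 CPM, with log2 ratios of -0.88 [-1.34 to -0.43] and 0.47 [-0.16 to 1.10]. The middle-aged day 6 library was highest in cluster 2, whereas the young day 6 library was highest in cluster 10. In cluster 1 the level was 5.697, 9.674, 8.646 and 8.374 CPM, with a log2 ratio of 0.76 [0.45 to 1.08] on day 6. These ratios rest on 143 and 295 UMIs in cluster 2, 151 and 57 in cluster 10 and 127 and 254 in cluster 1.

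For *Hmox1*, *Slc11a1* and *Slc11a2* the ages were closer than for *Fth1* in clusters 10 and 1 on both days. *Hmox1* in cluster 10 stood at 224.6 and 157.4 CPM on day 6 (log2 ratio -0.51 [-0.70 to -0.33]) and at 167.6 and 158.9 CPM on day 10 (-0.08 [-0.25 to 0.10]). On day 6, 1 middle-aged cell held 127 of 375 UMIs. The 10 richest cells held 56.8% of the UMIs in middle-aged and 23.8% in young mice, which the interval does not take into account. In cluster 1 *Hmox1* had 143.3, 161.4, 167.4 and 161.5 CPM, and in cluster 0 171.1, 217.9, 135.7 and 138.4 CPM. Its day 6 log2 ratio in cluster 0 was 0.35 [0.23 to 0.47], beside 0.27 for *Fth1*. *Slc11a1* differed little in cluster 10, with 173.7, 184.7, 199.2 and 193.8 CPM and intervals that span 0 on both days, as they did for *Slc11a2* (17.17, 20.98, 21.34 and 21.64 CPM). In clusters 10, 1, 5 and 0 the middle-aged level of *Slc11a1* lay between 0.885 and 1.115 times the young one on both days. Elsewhere some differences were larger, on small counts. On day 6 the log2 ratio in cluster 7 was 1.23 [0.66 to 1.80] for *Hmox1* (53 and 55 UMIs) and 1.24 [0.73 to 1.76] for *Slc11a1* (64 and 67 UMIs). *Hmox1* had 1.84 [0.68 to 3.18] in cluster 14 on that day (8 and 29 UMIs), and *Slc40a1* had 2.0 [0.51 to 3.96] in cluster 8 (4 and 32 UMIs). On day 10 cluster 6 had 0.88 [0.22 to 1.5] for *Hmox1* (97 and 28 UMIs) and 0.80 [0.32 to 1.26] for *Slc11a1* (183 and 50 UMIs).

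Day 10 was compared with day 6 in the same fit, over both ages. In the microglia-like cluster 8 both ferritin chains rose. *Fth1* rose by 1.42 ± 0.15 on the log2 scale (edgeR adjusted p = 1.5e-06) and *Ftl1* by 1.32 ± 0.12 (1.7e-07). Thus 2 of 7 members were called in cluster 8, against 13.4% of all genes. *Ftl1* had 3482 and 4748 CPM on day 6 and 8393 and 8398 CPM on day 10, so that the days did not overlap, nor did they for *Fth1*. Within the ages the day 10 over day 6 ratio of CPM, on the log2 scale, was 1.68 in young and 0.60 in middle-aged mice for *Fth1* and 1.27 and 0.82 for *Ftl1*. The monocyte/macrophage list was higher on day 10 in this cluster too, with the sums given above. In the cells left without 5 or more UMIs of the monocyte/macrophage or neutrophil list, *Ftl1* kept its call (log2 fold change 1.29, adjusted p = 0.0042), and *Fth1* did not (1.00, adjusted p = 0.055).

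In the microglia-like cluster 10 the transferrin receptor fell, by 1.15 ± 0.30 on the log2 scale (edgeR adjusted p = 0.037), and it was the only member called (1 of 7, against 6.64% of all genes). The young libraries had 43.93 CPM on day 6 and 11.38 CPM on day 10, and the middle-aged 23.92 and 15.76 CPM. The call was lost with DESeq2 (adjusted p = 0.49), with age left out of the model (0.070) and in the cells left without markers of the other myeloid lists (0.17), with log2 fold changes of -1.13, -1.19 and -1.50. *Fth1* and *Ftl1* had positive log2 fold changes in cluster 10, 0.90 ± 0.47 and 0.83 ± 0.38, with adjusted p = 0.31 and 0.24.

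Ferroportin fell between the days in the macrophage-like cluster 1 and the monocyte/macrophage-like cluster 5. In cluster 1, *Slc40a1* had 7.268 and 5.332 CPM on day 6 and 1.809 and 2.247 CPM on day 10 at the younger and the older age, a fall by 1.78 ± 0.27 on the log2 scale (edgeR adjusted p = 0.00031). It was the only member called there, 1 of 7 against 29.9% of all genes. In cluster 5 it fell by 1.65 ± 0.36 (adjusted p = 0.0034, and 0.16 in DESeq2), from 6.663 and 6.055 CPM to 2.544 and 2.383 CPM. The neutrophil list stood at 7074 and 5606 CPM on day 6 and at 16330 and 6493 CPM on day 10 in cluster 5. In cluster 1 it was higher on day 10 than on day 6 in young mice and lower in middle-aged mice, with the sums given above.

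These ferroportin counts sat in a minority of the cells. Cells with 5 or more UMIs of the neutrophil list were 36.5% of the cells of cluster 1 and held 364 of its 398 *Slc40a1* UMIs (91.5%), beside 52.0% of its *Fth1* UMIs. In cluster 5 they were 40.5% of the cells and held 107 of 114 (93.9%), beside 54.9% of the *Fth1* UMIs. In the cells of cluster 1 that were left, *Slc40a1* had 0.621 and 0.959 CPM on day 6 and 0.186 and 0.417 CPM on day 10, and its call was lost (log2 fold change -1.48, adjusted p = 0.16). In cluster 5 too few UMIs were left for the test, and its young day 10 library had 0 of 754530 UMIs, which allows up to 3.98 CPM. The share of cells left differed between the libraries. In young mice it was 79.9% on day 6 and 30.9% on day 10 in cluster 1, and 83.2% and 19.8% in cluster 5. In middle-aged mice it was 73.5% and 65.0% in cluster 1, and 56.0% and 56.7% in cluster 5. This subset was chosen after seeing the data.

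**Figure D3:**
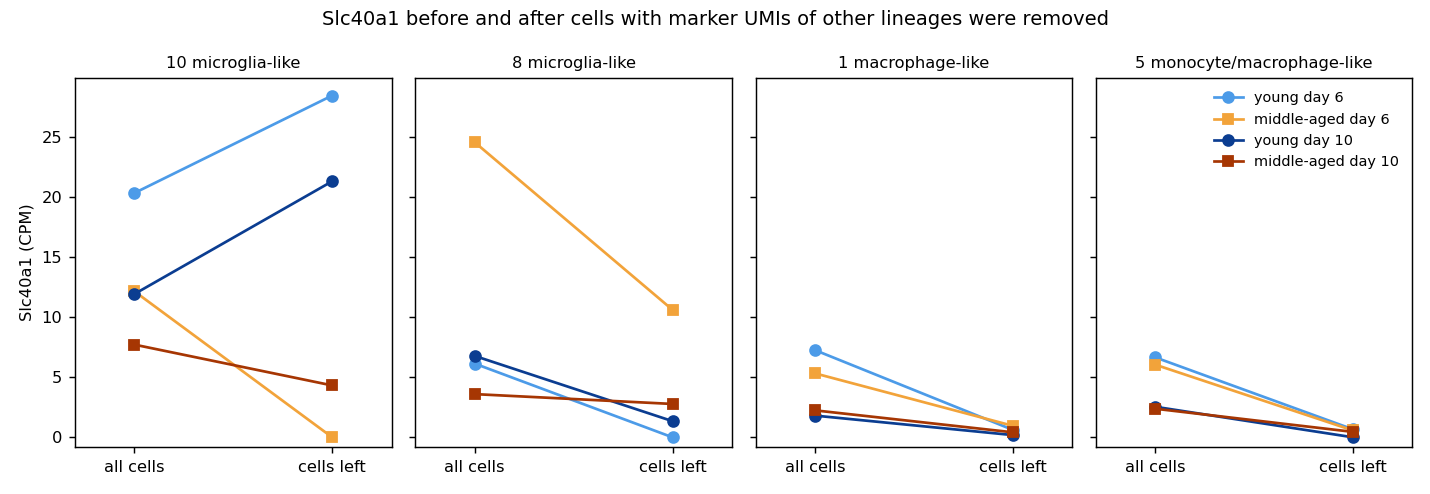
Level of *Slc40a1* in CPM in 4 clusters, in all cells (left of each panel) and in the cells left (right) after cells with 5 or more UMIs of the neutrophil list, and in clusters 10 and 8 also of the monocyte/macrophage list, were removed. Each line is 1 library. All 4 libraries of cluster 1 and 3 of cluster 5 drop to measured values under 1 CPM. Cluster 5 young day 10 is at 0 (which allows up to 3.98 CPM), as are cluster 8 young day 6 (up to 6.95 CPM) and cluster 10 middle-aged day 6 (up to 12.4 CPM). In cluster 10 the young libraries stay above the middle-aged ones.

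In microglia-like cluster 10 the monocyte/macrophage list was used for the removal too, so its shares are not directly comparable with those of clusters 1 and 5. There the removed cells were 59.3% of the cells and held 63.3% of the *Slc40a1* UMIs. Among the members this share ran from 63.2% (*Tfrc*) to 81.4% (*Fth1*), so *Slc40a1* was not concentrated in them. A cutoff in UMIs removes deep cells more readily, here and in clusters 1 and 5, so the share of cells is not the share of all UMIs. The *Slc40a1* share varied by library. It was 37.1% (26 of 70 UMIs) for young day 6 and 71.4% (30 of 42) for young day 10. At the older age it was 100% (29 of 29) and 80.0% (20 of 25). The level in the cells left was 28.5 CPM in young and 0 of 241575 UMIs (which allows up to 12.4 CPM) in middle-aged mice on day 6, and on day 10 it was 21.3 and 4.33 CPM. Young was higher on both days in all cells as well, with 20.37 against 12.17 CPM (log2 ratio -0.74 [-1.42 to -0.10]) and 11.95 against 7.728 CPM (-0.63 [-1.40 to 0.12]). The test over both days did not pass, as given above.

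In cluster 5, 2 more members were called, so 3 of 7 were called in all, against 25.5% of all genes. *Fth1* rose by 0.40 ± 0.14 on the log2 scale (edgeR adjusted p = 0.042, but 0.37 in DESeq2 and 0.43 with age left out of the model). The difference between the days was wider in young mice, at 5832 and 12140 CPM, than in middle-aged mice, at 11050 and 13880 CPM. *Slc11a1* fell by 0.71 ± 0.17 (adjusted p = 0.0063), from 102.0 and 112.1 CPM to 75.86 and 84.59 CPM. That call was lost with total counts in place of TMM factors (-0.41, adjusted p = 0.062) and without cells that hold neutrophil markers (-0.42, adjusted p = 0.23).

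The neutrophil-like cluster 0 had the most member calls, 5 of 7, against 54.4% of all genes. *Slc40a1* fell by 1.75 ± 0.14 on the log2 scale (edgeR adjusted p = 1.6e-07), *Hmox1* by 1.26 ± 0.14 (3.2e-06), *Ftl1* by 1.23 ± 0.13 (2.3e-06), *Slc11a1* by 1.00 ± 0.13 (1.5e-05) and *Fth1* by 0.98 ± 0.13 (2.1e-05). The size of these falls depends on the scaling. On total counts the median of all genes tested in cluster 0 lay 0.84 above 0 on the log2 scale, and 0.08 with TMM factors, and the genes called higher and lower numbered 5916 and 1044 in place of 2605 and 2613. With total counts *Slc40a1* (-0.99, adjusted p = 4.4e-06), *Hmox1* (-0.50, 0.0025) and *Ftl1* (-0.47, 0.0021) kept their calls, *Fth1* (-0.23, 0.10) and *Slc11a1* (-0.24, 0.11) lost theirs, and *Tfrc* was called higher (1.22, 8.7e-05). *Slc40a1* had 100.5 and 118.2 CPM on day 6 and 54.02 and 55.89 CPM on day 10, so its days did not overlap in CPM either. The thinned share of cells with an *Slc40a1* UMI was 15.7% and 16.3% on day 6 against 8.93% and 7.98% on day 10, with young given first, at median depths of 2365, 2193, 2267 and 2331 UMIs.

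No member was called for day in the neutrophil-like cluster 3 (0 of 5, against 17.8% of all genes) or the T cell-like cluster 2 (0 of 6, against 7.22%). In cluster 3 *Hmox1* (-0.83 ± 0.29, edgeR adjusted p = 0.074) and *Slc11a1* (-0.64 ± 0.27, 0.13) had unadjusted p under 0.05, and in cluster 2 none had, and DESeq2 called no member in either. With total counts the median of all genes lay at -0.15 on the log2 scale in cluster 10, -0.29 in cluster 8, 0.19 in cluster 1, 0.34 in cluster 5, 0.28 in cluster 3 and -0.11 in cluster 2, so values there are read against it. With total counts the genes called higher and lower were 288 and 744 in place of 336 and 365 in cluster 10, 253 and 962 in place of 544 and 578 in cluster 8, and 2435 and 1301 in place of 1802 and 1852 in cluster 1. They were 2846 and 1048 in place of 1060 and 1591 in cluster 5, 325 and 405 in place of 205 and 598 in cluster 3, and 381 and 504 in place of 451 and 369 in cluster 2.

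**Figure D4:**
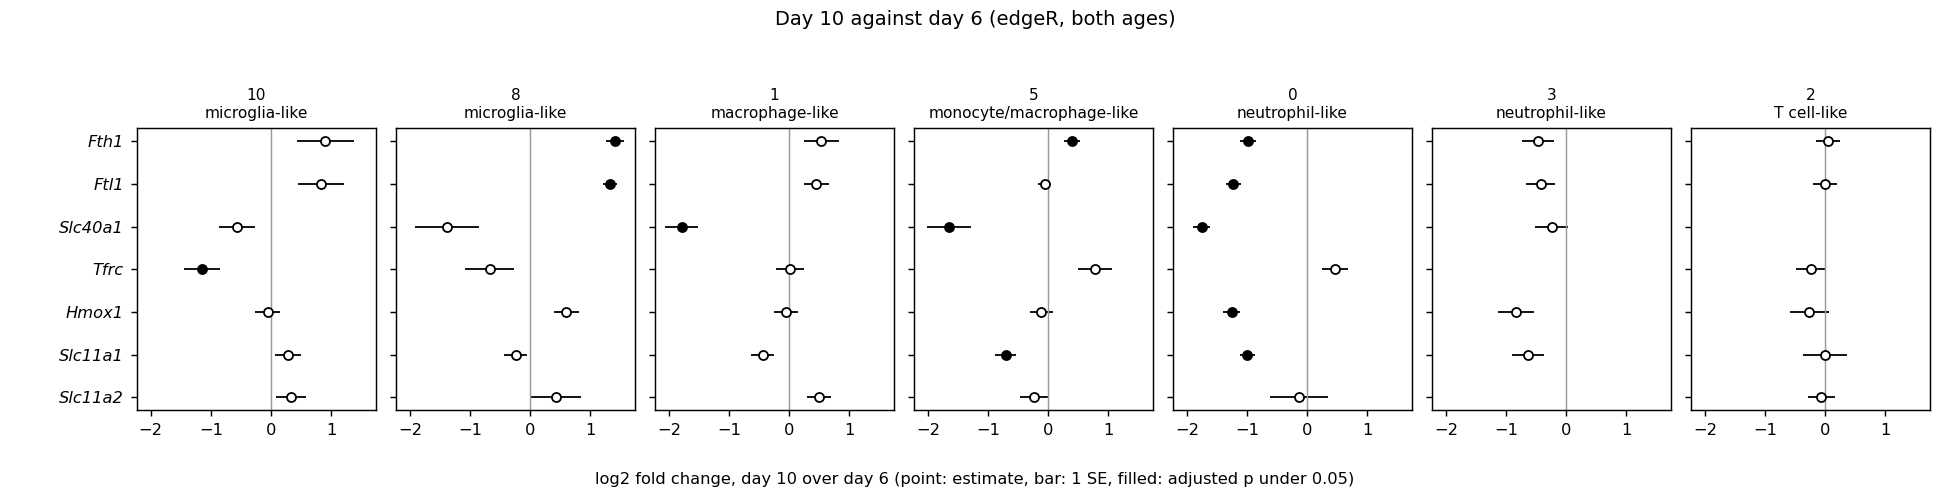
Log2 fold change of day 10 over day 6 for each gene in the 7 clusters fitted (edgeR, 4 libraries, TMM factors). Points are estimates, bars 1 SE, and filled points have an adjusted p under 0.05, which are *Tfrc* in cluster 10, *Fth1* and *Ftl1* in cluster 8, *Slc40a1* in cluster 1, *Fth1*, *Slc40a1* and *Slc11a1* in cluster 5, and *Fth1*, *Ftl1*, *Slc40a1*, *Hmox1* and *Slc11a1* in cluster 0.

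Other genes of iron and heme handling were taken from a list of 38, of which 35 were in the single-cell table. None was called for age in any of the 7 clusters by edgeR with its filter on low counts and TMM factors or by DESeq2, and 15 of 172 of those edgeR tests had an unadjusted p under 0.05. Without the filter edgeR called *Slc39a14* higher in cluster 5, *Blvrb* higher in cluster 0, *Steap4* higher in cluster 3 and *Lcn2* lower in cluster 2, and with total counts *Steap4* in cluster 3. For day, the macrophage-like cluster 1 had the most calls, 10 higher and 3 lower of 29 tested, against 29.9% of all genes, with a list median log2 fold change of 0.34 beside 0.03 over all genes. The genes that rose there included the hemochromatosis protein *Hfe* (1.45 ± 0.21, edgeR adjusted p = 0.00023), the endosomal ferrireductase *Steap3* (1.53 ± 0.34, 0.0043), the lysosomal heme transporter *Slc48a1* (1.32 ± 0.19, 0.00017), the ferritinophagy receptor *Ncoa4* (0.98 ± 0.19, 0.0017) and ferrochelatase *Fech* (1.03 ± 0.20, 0.0018). *Steap4* (-2.34 ± 0.42, 0.0010), the heme-binding repressor *Bach1* (-0.93 ± 0.24, 0.011) and the constitutive heme oxygenase *Hmox2* (-0.84 ± 0.19, 0.0045) fell. The folate and heme carrier *Slc46a1* (1.52), the hemopexin receptor *Lrp1* (0.86), the iron regulatory protein *Aco1* (0.84), *Trf* (0.83) and *Hp* (0.76) rose as well. Cells without neutrophil markers gave 9 higher and 2 lower of 25, and DESeq2 gave 7 and 3 of 29.

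In the microglia-like cluster 8, 6 rose and 3 fell of 26, against 13.4% of all genes. Haptoglobin *Hp* (1.67 ± 0.22, edgeR adjusted p = 1.7e-05), biliverdin reductase *Blvrb* (1.28 ± 0.21, 0.00024), *Ncoa4* (1.16 ± 0.29, 0.0097), *Slc48a1* (1.18 ± 0.29, 0.0091) and transferrin *Trf* (1.03 ± 0.18, 0.00042) were among those that rose, with *Lrp1* (1.26), and the metalloreductase *Steap4* (-1.82), the zinc and iron importer *Slc39a14* (-1.27) and the ubiquitin ligase adaptor *Fbxl5* (-0.74), an iron sensor, fell. In cluster 10, 5 rose and 1 fell of 29, against 6.64% of all genes, among them the ferroxidase ceruloplasmin *Cp* (3.23 ± 0.72, 0.018) and *Blvrb* (1.22 ± 0.21, 0.0046), with the siderophore-binding *Lcn2* (1.01), *Hp* (0.95) and *Lrp1* (0.80) as the others that rose and *Slc39a14* (-0.80) as the 1 that fell. *Cp* counts were small, at 0.2909 and 0.8394 CPM on day 6 and 3.414 and 6.491 CPM on day 10. Of the list, 2 rose and 5 fell of 26 in cluster 5 (25.5% of all genes), 5 and 7 of 23 in cluster 0 (54.4%, near the share of the list), 1 and 3 of 16 in cluster 3 (17.8%) and 1 and 2 of 23 in cluster 2 (7.22%). DESeq2 called fewer, 0 and 0 in cluster 10, 4 and 0 in cluster 8, 0 and 2 in cluster 5, 2 and 6 in cluster 0, 0 and 3 in cluster 3 and 0 and 0 in cluster 2. With total counts these became 4 and 3 in cluster 8, 4 and 1 in cluster 10, 6 and 3 in cluster 5, 14 and 2 in cluster 0, 2 and 2 in cluster 3 and 0 and 2 in cluster 2, so the split of clusters 5 and 0 rests on the scaling. In the cells of clusters 8 and 10 without markers of other myeloid lists edgeR called none of the 18 and 24 genes that could still be tested. The list median there was 0.55 over 18 genes in cluster 8 and 0.16 over 24 in cluster 10. In all cells it was 0.25 over 26 genes and 0.26 over 29. These sets of genes differ, so neither the medians nor the lost calls show whether the difference went away. In cluster 0 the largest rise was that of *Slc48a1* (1.40) and the largest fall that of *Hmox2* (-1.33), in cluster 5 *Ncoa4* (0.66) and *Slc39a14* (0.67) rose and *Bach1* (-1.29) fell furthest, in cluster 3 *Steap4* (-2.96) fell furthest and *Lcn2* (0.98) rose, and in cluster 2 *Hp* (0.99) rose and *Slc39a8* (-0.86) and *Keap1* (-0.57) fell. With TMM factors, *Hmox2* and *Bach1* were among the falls in clusters 1, 5 and 0, while *Slc39a14* rose in clusters 5 and 0 and fell in clusters 10 and 8.

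In bulk microglia of naive mice *Hmox1* had the largest ratio of the members between the ages. Its 6070 and 10131 counts, young first, made 76.47 and 132.8 CPM, a log2 ratio of 0.80 [0.75 to 0.84] or 1.74-fold. It was the only member 1.5-fold or more apart, 1 of 7, a share near the 14.4% of the 14821 genes that had 100 or more counts in total (715 higher and 1421 lower). With 1 library per age there is no test. In the microglia-like clusters of EAE the same ratio was -0.51 and -0.08 in cluster 10 and 0.19 and 0.21 in cluster 8, on day 6 and day 10, where only the first had an interval clear of 0.

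The other members had smaller ratios in bulk, of which those of *Fth1*, *Ftl1*, *Tfrc*, *Slc40a1* and *Slc11a1* also had intervals clear of 0. *Fth1* stood at 557.2 and 639.8 CPM (0.20 [0.18 to 0.22]) and *Ftl1* 326.6 and 373.1 CPM (0.19 [0.17 to 0.22]). *Tfrc* had 28.18 and 23.38 CPM (-0.27 [-0.36 to -0.18]) and *Slc40a1* 249.6 and 239.5 CPM (-0.06 [-0.09 to -0.03]). *Slc11a1* had 342.8 and 354.7 CPM (0.05 [0.02 to 0.07]) and *Slc11a2* 38.97 and 40.72 CPM, with an interval that spans 0. The median log2 ratio of the 7 was 0.06, beside -0.01 over all genes tested. Bulk reads were counted over whole genes, so these values are per gene and not per length, and the bulk and single-cell scales cannot be set against each other.

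Among 30 other genes of the iron list tested in bulk, 1 was 1.5-fold or more higher and 3 lower in middle-aged mice, with a median of -0.04. *Hp* was higher (0.85 [0.60 to 1.11]), and *Cp* (-1.55 [-1.65 to -1.46]), the heme transporter *Flvcr2* (-1.71 [-2.14 to -1.30]) and the haptoglobin-hemoglobin receptor *Cd163* (-1.22 [-1.33 to -1.11]) were lower. Markers of other cells moved as well. All 9 endothelial markers were lower in middle-aged mice, from a sum of 712 to 155 CPM, as were 4 of 6 markers of border-associated macrophages (1100 to 1010 CPM) and 3 of 9 of the monocyte/macrophage list (233 to 109 CPM, with 1 higher). None of the 9 microglia markers (31000 and 29200 CPM) or of the 9 neutrophil markers tested (232 and 268 CPM) was apart, and erythroid markers summed to 5.81 and 7.37 CPM. Their part in the ratios of the members was not tested. In such bulk samples fewer cells of a type and less RNA per cell cannot be told apart.

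**Figure D5:**
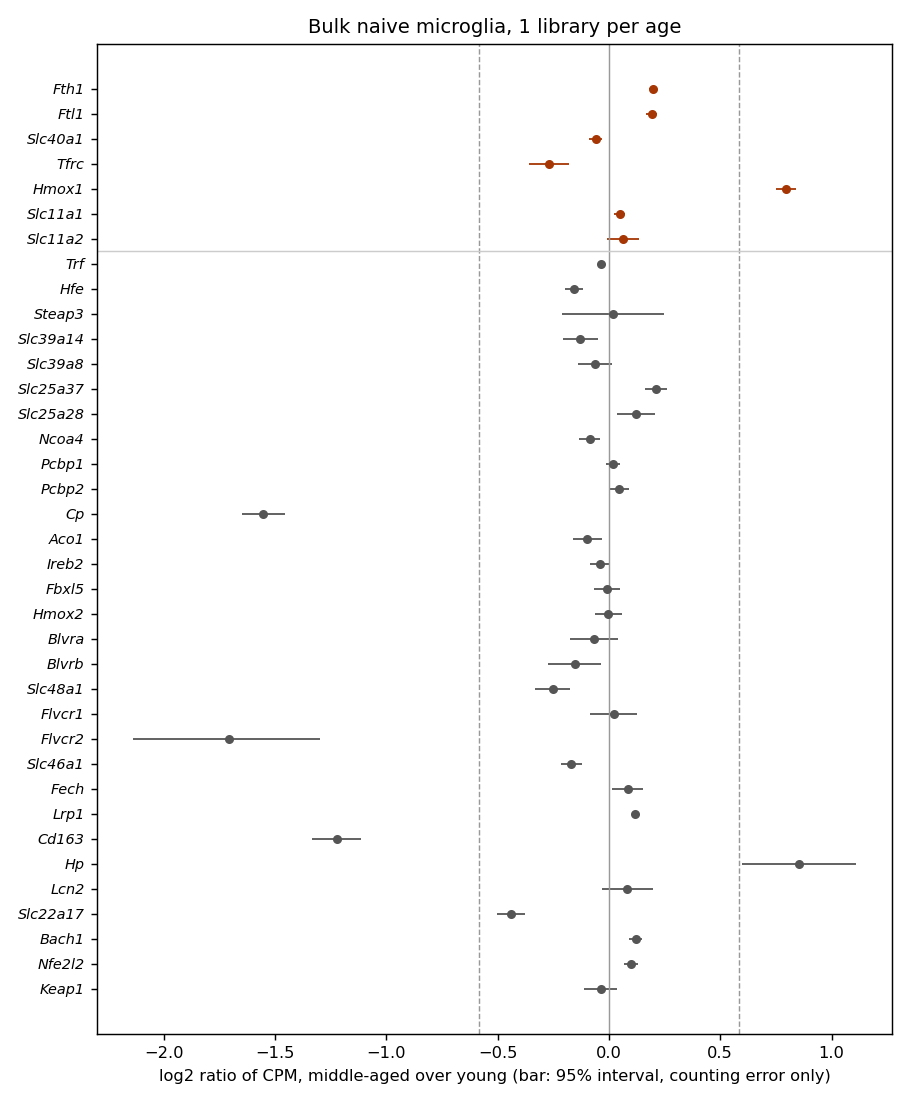
Log2 ratio of CPM, middle-aged over young, in bulk naive microglia for the 7 genes (upper part) and 30 other genes of iron and heme handling (lower part). Points are ratios of 1 library per age, bars 95% intervals for counting error only, and dashed lines mark 1.5-fold. *Hmox1* and *Hp* lie beyond the line on the right and *Cp*, *Flvcr2* and *Cd163* on the left.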

How the data were processed

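Per the labels, the authors counted UMIs with Cell Ranger 3.1.0 on mm10. In Seurat they removed cells of low or outlying depth and cells rich in mitochondrial or ribosomal reads, integrated the libraries and clustered the cells. The deposited single-cell values are raw counts per gene and cell with a cluster number. Bulk reads were trimmed, aligned with HISAT2 to GRCm38 and counted by gene without strand, and the deposited values are raw counts (79373420 young, 76293436 middle-aged), of which *Gm26917* held 10.7% and 10.8%.

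Here UMIs were summed by cluster and library and fitted in edgeR 4.0.16 (R 4.3.3; glmQLFit, glmQLFTest, TMM, genes with 10 or more UMIs in 2 or more libraries, age and day in the model), after the script was tested on simulated data. Cells are not replicates, so single pairs of libraries and bulk got exact conditional binomial 95% intervals and no test. DESeq2 1.42.0 and the other alternatives are given at the end. No doublet caller was run. The p-values rest on the part of the age effect that differs between the days (1 residual degree of freedom) and not on replicates. In edgeR this spread is drawn toward that of all genes tested, so a small p-value does not show that a gene's own libraries agree. Each library was of pooled mice, so the spread between mice was not measured.

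The members, the iron list and the marker lists were chosen with earlier results of these data known. Named genes were the members, genes of the list that passed a test or stood 1.5-fold apart in bulk, and the 3 genes most like each member. Hairpins were searched in GENCODE vM21 on GRCm38. No protein sequence was used here.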

Additional observations from a re-analysis of the deposited data

Results flagged for a closer look

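In the 7 clusters fitted, opposite directions with intervals clear of 0 were seen for 6 gene and cluster pairs between the days of the age ratio. Between the ages of the day ratio there were 3 in these clusters. Such pairs also occurred in other clusters. The log2 age ratio of *Fth1* was 0.82 on day 6 and -0.08 on day 10 in cluster 7. In cluster 13 it was -0.08 and 0.65. The log2 day ratio in cluster 7 was 0.74 in young and -0.16 in middle-aged mice for *Fth1*. For *Ftl1* it was 0.27 and -0.21 there. None of these differences was tested, since each rests on 4 libraries without replicates. As log2 ratios of CPM between the ages (middle-aged over young), *Fth1* in cluster 1 was 1.16 on day 6 and -0.23 on day 10, and *Fth1* in cluster 8 was 0.96 and -0.11. *Ftl1* was 0.30 and -0.04 in cluster 1, 0.17 and -0.14 in T cell-like cluster 2, and -0.32 and 0.53 in neutrophil-like cluster 3. *Slc11a1* in cluster 3 was -0.47 and 0.42, on 91 and 75 UMIs on day 6 and 200 and 69 on day 10.

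For the log2 ratio of day 10 over day 6, *Tfrc* in cluster 2 was 0.30 in young and -0.94 in middle-aged mice. In cluster 3, *Fth1* was -0.87 and 0.41 and *Ftl1* -0.61 and 0.24, so that young day 10 was the lowest of the 4 libraries for both chains. The same library of cluster 3 had the highest sum of the neutrophil list, 314800 CPM against 155700, 166000 and 213400 CPM in young day 6, middle-aged day 6 and middle-aged day 10, and its part in the ferritin values was not tested.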

How the results depend on the processing

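Alternatives were compared for the member levels, ratios and tests, and both total counts in the tests and the removal of cells with markers of other lineages in clusters 10, 8, 1 and 5 were added after seeing the data. No paired analysis was possible because the labels give no shared replicate numbers and each group is 1 sample. Leaving out 1 library would leave no residual degree of freedom, so it was not run as a test. The 2 bulk libraries and the pairs of single-cell libraries have no test at all, and low UMI counts limit *Slc40a1*, *Tfrc* and *Slc11a2* most. The cause of the differences between settings was not tested.

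For age, 15 genes were called in cluster 10, 8 in cluster 8, 12 in cluster 1, 68 in cluster 5, 20 in cluster 0, 42 in cluster 3 and 7 in cluster 2. Without a filter on low counts the numbers were 53, 41, 3, 303, 181, 182 and 34 in that order, and with day left out 0 in each. DESeq2 called 5 in cluster 10, 2 in cluster 8, 21 in cluster 5 and 5 in cluster 0. With total counts 3 were called in cluster 8 and 58 in cluster 0. With RLE size factors 4 were called in cluster 1, 159 in cluster 5, 35 in cluster 0, 0 in cluster 3 and 16 in cluster 2. In the cells without markers of other lineages 0 were called in cluster 10, 0 in cluster 8, 2 in cluster 1 and 29 in cluster 5. Instead of 0 members, 1 (*Fth1*) was called in clusters 8 and 5 without a filter (adjusted p = 0.000112 and 5e-06 in edgeR) and 1 in cluster 5 with RLE factors (0.0087).

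For day, 701 genes were called in cluster 10, 1122 in cluster 8, 3654 in cluster 1, 2651 in cluster 5, 5218 in cluster 0, 803 in cluster 3 and 820 in cluster 2. DESeq2 called 138, 248, 1923, 1159, 2929, 381 and 360 in that order. Without a filter 1201 were called in cluster 10, and with age left out 291 in cluster 3. In the cells without markers of other lineages 92 were called in cluster 10, 120 in cluster 8 and 1157 in cluster 5. Of the members, the 1 called in cluster 10 was 0 with DESeq2, with age left out and in those cells. The 2 of cluster 8 were 4 without a filter and 1 in those cells, the 1 of cluster 1 was 2 with age left out, 2 with total counts and 0 in those cells, and the 3 of cluster 5 were 1 with DESeq2 and 1 in those cells.

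Some values changed sign. In the cells without markers of other lineages, the age log2 fold change in cluster 10 was -0.014 for *Ftl1*, 0.19 for *Tfrc*, -0.11 for *Slc11a1* and -0.10 for *Slc11a2*, that of *Slc40a1* in cluster 1 was 0.79, and the day log2 fold change was 0.027 for *Slc11a1* in cluster 8, -0.013 for *Tfrc* in cluster 1, and 0.098 for *Ftl1* and 0.11 for *Hmox1* in cluster 5. With total counts the age value of *Slc11a1* was -0.031 in cluster 1 and -0.021 in cluster 3, and the day value was 0.11 for *Hmox1* in cluster 1, 0.23 for *Ftl1*, 0.18 for *Hmox1* and 0.061 for *Slc11a2* in cluster 5, 0.61 for *Slc11a2* in cluster 0, 0.0026 for *Slc40a1* in cluster 3, and -0.11 for *Slc11a1* and -0.059 for *Fth1* in cluster 2. Without a filter *Slc11a1* had -0.011 for age in cluster 3 and *Ftl1* 0.0098 for day in cluster 2. With the other factor left out *Slc11a1* had -0.031 for age in cluster 3 and -0.020 for day in cluster 2, and *Tfrc* had -0.040 for day in cluster 1. With RLE factors the day value of *Tfrc* in cluster 1 was -0.0094 and that of *Slc11a1* in cluster 2 -0.012, and DESeq2 gave *Tfrc* in cluster 1 -0.00060.

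Of 96 age ratios by day, 73 stayed within their interval with TMM factors, 87 with mitochondrial and ribosomal genes left out of the total, 96 with cells of 1000 or more UMIs and 60 as means of log-normalized values per cell. Without cells that held markers of any other lineage, 45 of 89 did and 5 changed sign, *Slc40a1* (1.12) and *Ftl1* (-0.037) on day 6 in clusters 1 and 2, and *Ftl1* (0.063) in cluster 1 and *Fth1* (-0.35) and *Ftl1* (-0.017) in cluster 5 on day 10. The levels of cluster 6 could not be computed without these cells, since a library then had none. Shares of cells with a UMI moved with the thinning depth in most cases, by construction. In bulk naive microglia, genes 1.5-fold or more apart numbered 12065 in place of 2136 without a minimum count, while the ratios of all 7 members stayed within their intervals under 4 alternatives. DESeq2 gave no adjusted p for 3 day tests, which were left out.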
